A study of Caenorhabditis elegans with 2 samples.

Results

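The energy metabolism and mitochondrial genes ant-1.1, coa-5, aakg-3, swt-7 and phdh-1 were examined for binding of the nuclear hormone receptor NHR-86 after exposure of C. elegans to the small molecule R24. They make up 5 of the 189 genes in the gene table that the authors deposited beside their peak list. The members were chosen by name from that table, so they were selected on the binding values themselves, and those values are given as a description without a test. The table calls coa-5 by its sequence name Y18D10A.16 and phdh-1 by C31C9.2.

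DNA bound by the tagged receptor was sequenced after precipitation (ChIP-seq) with anti-GFP antibody, from whole animals of the strain VL648. All animals carried unc-119(ed3) and the transgene wwIs22, in which the nhr-86 promoter drives nhr-86 fused to GFP, with unc-119(+) as the marker, so the tagged receptor was present in both groups in addition to native nhr-86. The R24 group was exposed overnight from the L4 stage to 70 µM R24 in 1% DMSO, and the DMSO group received the solvent alone at 1%. Each group held 1 library, with 879943 tags for R24 and 2047658 tags for DMSO, so no difference has a replicate check and all intervals below cover counting error only. The peak file numbers both libraries 2, whereas the labels give 1 library per group and no number, so the link from file to labelled library rests on the treatment alone. The DMSO library was the only control analysed here, and input chromatin and untagged animals were not.

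Mitochondria make ATP by passing electrons along the respiratory chain to cytochrome c oxidase, and an ADP/ATP carrier in the inner membrane exchanges the product for spent ADP. The AMP-activated protein kinase senses a fall in cellular energy through its gamma subunit, which binds AMP. Sugar transporters and the enzymes that draw carbon from glycolysis into serine feed the same network. Nuclear hormone receptors are transcription factors, many of which control metabolic genes in response to small lipophilic molecules. NHR-86 is a homolog of the mammalian HNF4 and is found in nuclei of the worm intestine.

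The gene table holds no positions. Each gene was joined to a peak where its table value, divided by the factor 1.325 common to the table, equalled, for 1 peak on the gene's chromosome, its −log10 q (the adjusted p of the peak caller MACS on a negative log scale) or its fold. Such a peak was found by the full value for 4 of the 5 genes, by the fold at swt-7 and by −log10 q at ant-1.1, aakg-3 and phdh-1. coa-5 matched by the decimals alone, since the whole part of its value was lower by 8 than that of the −log10 q of its peak, so its peak is the least certain. The value of ant-1.1 also occurred at a peak on chromosome I, which was joined to Y52B11A.4, and its chromosome decided between these peaks. Positions are in ce10. Which exon, intron or promoter lies under a peak was not determined, since the gene list used here is of the assembly WBcel235.

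The R24 library stood above the DMSO library at the peaks of all 5 genes, as the presence of the genes in the table required. The deposited fold, which is the R24 pileup (the tags, extended to fragment length, over the summit) + 1 over the local DMSO background + 1, was 4.73 at aakg-3, 4.46 at swt-7, 4.24 at coa-5, 3.86 at ant-1.1 and 3.19 at phdh-1. The median of the 5 was 4.24, beside 3.896 for all 220 peaks (range 2.31 to 11.09). A fold of at least 4 was reached by 3 of the 5 genes, beside 45% of all peaks. By fold the 5 ranked 46 to 190 of 220. The gene table also gives a q of its own, which was under 0.05 for 2 of the 5 genes, beside 149 of the 189 table genes. This differs from the peak list, where all peaks passed a q cutoff of 0.05.

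ant-1.1 encodes an ADP/ATP carrier of the inner mitochondrial membrane. Its peak (III, 13462927 to 13463251, summit 13463062) held 24 R24 tags (exact Poisson 95% interval 15.4 to 35.7), against a DMSO background of 5.47 tags (3.96 to 7.37). The background is the highest of the DMSO tag densities in windows of 296 bp, 1 kb and 10 kb around the summit, scaled to the R24 library by 0.430. At ant-1.1 it equalled 43 DMSO tags in the 1 kb window or 430 in the 10 kb window, which give the same background. Where windows could not be told apart, here and below, the smaller was taken. Its lower count gives the wider intervals. The plain ratio of R24 over DMSO was then 4.39 (exact 95% interval 2.55 to 7.39). The fold of this peak ranked 114 of 220.

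coa-5 is named for the assembly of cytochrome c oxidase, a process in which its human counterpart acts. The peak joined to it (I, 12892916 to 12893614, summit 12893308) had the most tags of the 5, with 47 R24 tags (34.5 to 62.5), against a DMSO background of 10.3 tags (6.61 to 15.3). Both libraries were high there. The pileup ranked 12 and the background ranked 17 of 220, and the background was 2.0 times the median of all peaks. It came from 24 DMSO tags in the 296 bp window, so DMSO tags were denser over this summit than in the wider windows. The plain ratio was 4.56 (2.73 to 7.79), and the −log10 q of 12.6 ranked 16 of 220. At 699 bp the peak was also the longest of the 5, whose other lengths were 325 to 426 bp.

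aakg-3 encodes a gamma subunit of the AMP-activated protein kinase. Its peak (X, 2971344 to 2971769, summit 2971559) held 26 R24 tags (16.98 to 38.1). The DMSO background was 4.71 tags (3.31 to 6.49), from 37 tags in the 1 kb window or 370 in the 10 kb window. Together these gave the highest deposited fold of the 5 and a rank of 46 of 220. The plain ratio was 5.52 (3.21 to 9.37). The peak stood alone. The nearest peaks on either side were 1466760 bp and 318402 bp away.

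swt-7 encodes a sugar transporter of the SWEET family. Its peak (V, 5030191 to 5030531, summit 5030293) had the lowest pileup and the lowest background estimate of the 5, with 17 R24 tags (9.90 to 27.2), against a DMSO background of 3.04 tags (2.67 to 3.45). The background came from the 10 kb window, which held 239 DMSO tags. Because MACS takes the highest of the windows, at most 7 DMSO tags covered the summit in the 296 bp window and at most 23 in the 1 kb window. DMSO tags were thus no denser over this summit than over the 10 kb around it. The plain ratio was 5.59 (3.20 to 9.14), the highest of the 5, while the deposited fold ranked below that of aakg-3, since the pseudocount of 1 weighs more where tags are few.

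phdh-1 encodes 3-phosphoglycerate dehydrogenase, the enzyme of the first step from glycolysis to serine. Its peak (II, 13635612 to 13636019, summit 13635944) held 18 R24 tags (10.7 to 28.4). The DMSO background was 4.96 tags (3.53 to 6.78), from 39 tags in the 1 kb window or 390 in the 10 kb window. The plain ratio was 3.63 (1.95 to 6.50). Its fold ranked 190 and its −log10 q of 2.78 ranked 211 of 220, which made it the weakest of the 5. The lowest −log10 q of the whole list was 1.77, at a peak joined to ZK632.9, followed by 1.90.

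**Figure D1:**
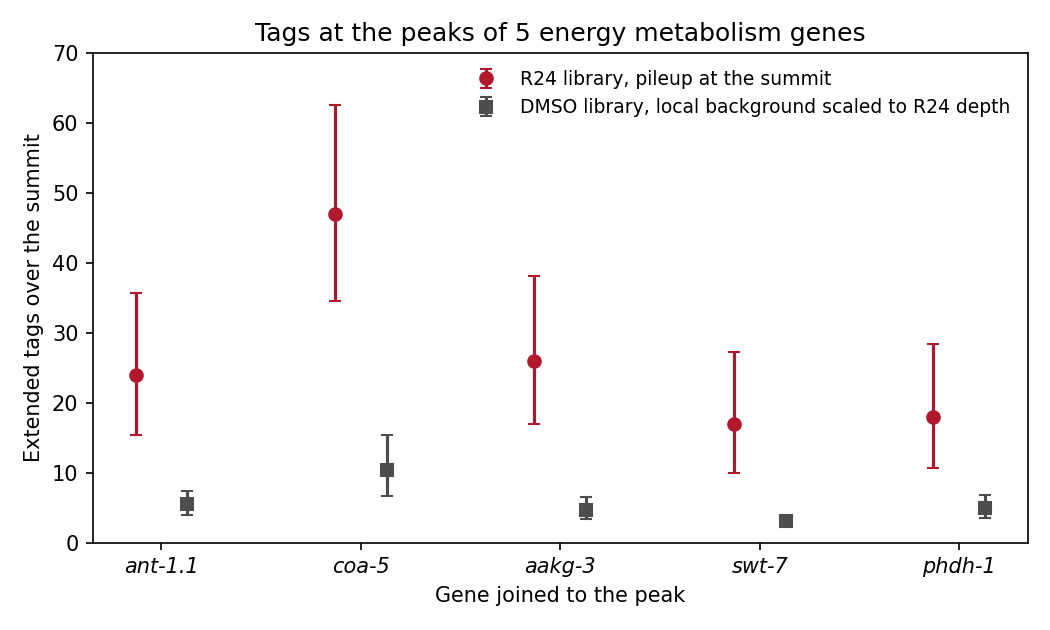
Extended tags over the summit (y axis) at the peaks of the 5 genes (x axis), with the R24 pileup as red circles and the DMSO background scaled to the R24 depth as grey squares. Bars are exact Poisson 95% intervals of 1 library per group. Those of DMSO are of the tags in the window used, such as 24 in 296 bp at coa-5 and 239 in 10 kb at swt-7. A narrow DMSO bar thus does not mean a better known level over the summit. R24 pileups run from 17 at swt-7 to 47 at coa-5, against backgrounds from 3.04 to 10.3.

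**Figure D2:**
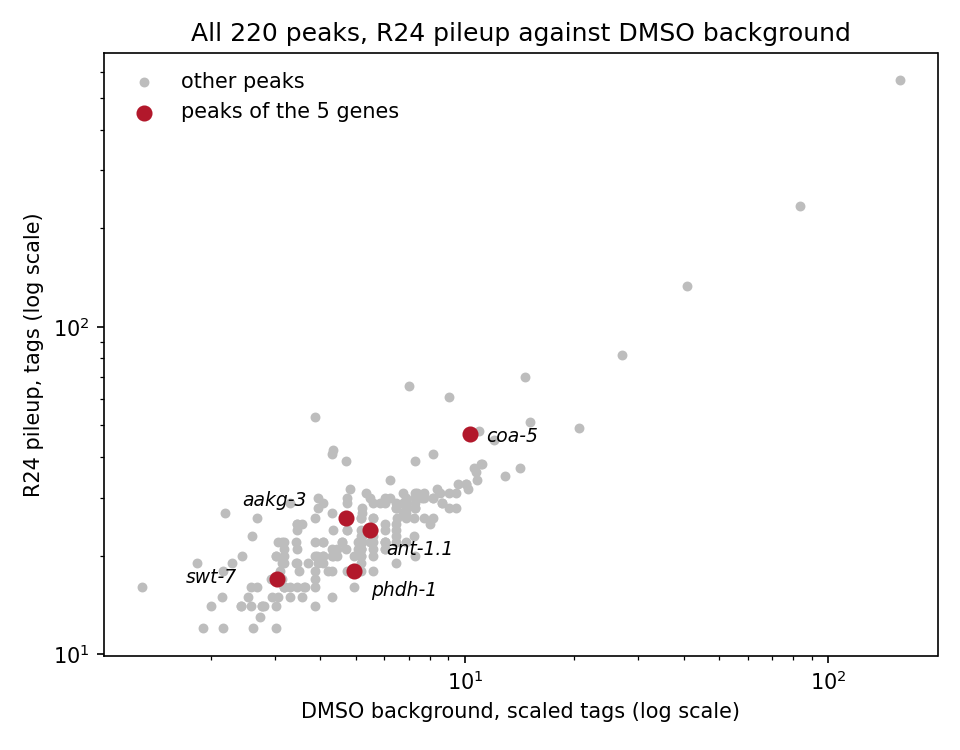
R24 pileup (y axis, tags, log scale) against DMSO background (x axis, scaled tags, log scale) for each of the 220 peaks, with the 5 genes in red. coa-5 ranks 12 by pileup and 17 by background, ant-1.1 and aakg-3 lie near the medians of 23 and 5.16 tags, and swt-7 lies low on both axes, at ranks 184 and 191.

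The order of the 5 genes by fold was not resolved by the counts. Exact intervals of the plain ratio overlapped in all 10 pairs of genes, from the highest lower bound of 3.21 at aakg-3 to the lowest upper bound of 6.50 at phdh-1. Each of the 5 intervals lay above 1, as the choice of called peaks required. The intervals are too narrow for a judgement on any single peak, since the summit is by construction the highest point of its peak and the peak was called on the same tags.

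The source of the background differed among the genes. It came from the 296 bp window at coa-5 and from the 10 kb window at swt-7. At ant-1.1, aakg-3 and phdh-1 it came from the 1 kb or the 10 kb window, which their counts cannot tell apart. With the smallest window that fits taken, over all 220 peaks 108 backgrounds came from the 296 bp, 90 from the 1 kb and 22 from the 10 kb window. Some of the 90 may thus be of the 10 kb window. Only coa-5 of the 5 genes therefore had a local rise of DMSO tags within a fragment length of its summit as the highest density. The pileups reached 2.87% to 7.94% of the 592 tags that 1 tag per position and strand allows, so none of the 5 was near saturation.

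Peaks adjoined those of ant-1.1 and phdh-1. Another peak lay within 10 kb at 2 of the 5 genes, beside 24.1% of all peaks. Next to ant-1.1, 1385 bp further on, lay a peak with 48 R24 tags (35.4 to 63.6), against a DMSO background of 10.9 tags (8.75 to 13.5). That background equals 86 tags in 1 kb or 860 in 10 kb. The peak was joined, by decimals alone, to cdk-5, a cyclin-dependent kinase gene that follows ant-1.1 directly in the annotation. Its deposited fold was 4.10. The plain ratio of 4.39 was the same at both, because 48 over 86 tags equals 24 over 43.

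Next to phdh-1, only 60 bp away, lay a longer peak (II, 13636080 to 13636713) that no gene of the table could be joined to. It held 31 R24 tags (21.1 to 44.0), against a DMSO background of 9.02 tags (5.59 to 13.8), a fold of 3.19 like that of the phdh-1 peak itself. Its background came from 21 tags in the 296 bp window. The summits were 559 bp apart, and whether they form 1 enriched region was not tested. In the annotation phdh-1 lies between tag-10 and fbxa-167, neither of which is in the gene table.

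The other 3 peaks had no neighbour within 10 kb. Below swt-7, 11775 bp away, lay the peak of srr-4, a gene of a chemoreceptor family, with 22 R24 tags (13.8 to 33.3), against a DMSO background of 3.05 tags (1.96 to 4.54), and a fold of 5.68. Below coa-5, 15566 bp away, lay the peak of pad-1, its direct neighbour in the annotation, with 23 R24 tags (14.6 to 34.5), against a DMSO background of 2.59 tags (2.25 to 2.98), and a fold of 6.68. Both neighbours thus had a higher deposited fold than the energy gene beside them. The pad-1 peak, like that of coa-5, was joined by decimals alone. Its background lies under the 2.89 tags that the worm genome size would set as the lowest, which would lower its fold. The plain ratio at pad-1 was 8.86 (5.49 to 13.7) and that at coa-5 4.56 (2.73 to 7.79). These intervals overlapped, which alone does not show that the ratios were equal.

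**Figure D3:**
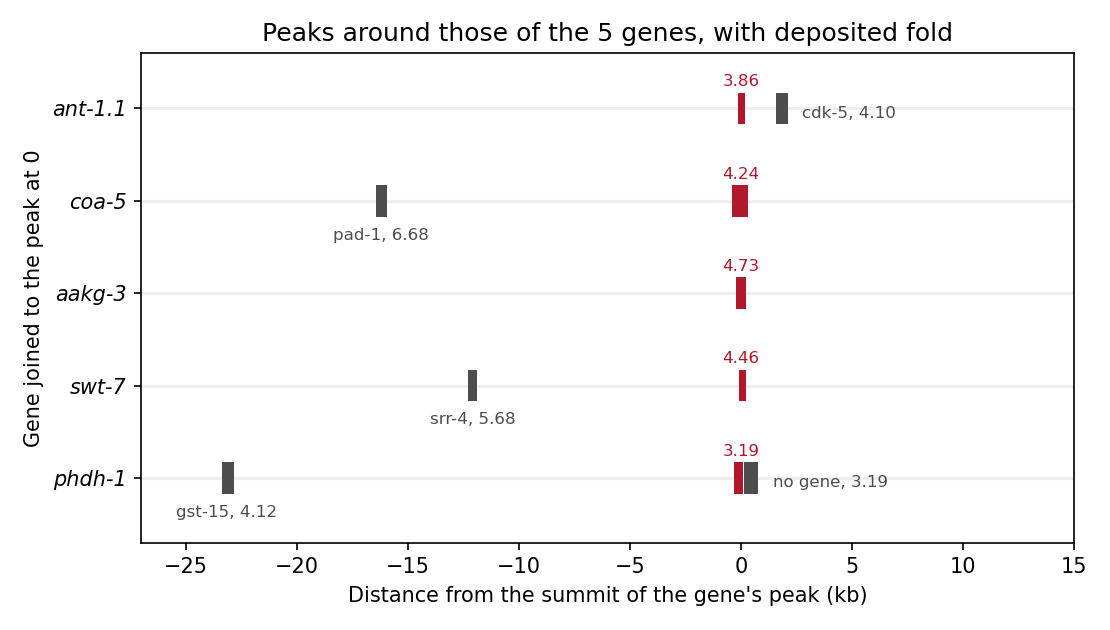
Peaks around those of the 5 genes, drawn to scale by distance from the summit of the gene's own peak (x axis, kb), with the peak of each gene in red, other peaks in grey and the deposited fold beside each. ant-1.1 and phdh-1 have a peak at once beside their own, swt-7 and coa-5 have one at 11775 and 15566 bp, and aakg-3 has none in view.

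Peaks of other genes resembled those of the 5 in both libraries. Likeness was taken as the distance in log2 pileup and log2 background among joined genes, over the 2 libraries. Nearest to aakg-3 was irg-5, an infection response gene, at a distance of 0.00631 log2 units, with 26 R24 tags, against a DMSO background of 4.73 tags. Its fold of 4.71 was close to the 4.73 of aakg-3. The windows differed, however, with 11 DMSO tags in 296 bp at irg-5 and 37 in 1 kb, or 370 in 10 kb, at aakg-3. At irg-5 2 other peaks lay within 10 kb, whereas the peak of aakg-3 stood alone. Nearest to phdh-1 were ugt-14, a UDP-glycosyltransferase gene, and the infection response gene irg-6, with folds of 3.32 and 3.25. Nearest to coa-5 was cdk-5, nearest to ant-1.1 was vem-1 with a fold of 4.06, and nearest to swt-7 was dhhc-10 with a fold of 4.35. These likenesses rest on tag numbers in 1 library per group.

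The rest of energy metabolism, together with the methionine and folate cycle, was examined with 13 gene lists, which held 171 annotated genes. Of these 9 were in the deposited gene table, or 5.26%, beside 0.766% of the 19983 protein-coding genes and 0.388% of all 46926 annotated genes, among them many of non-coding RNAs. As 170 of the 171 list genes are protein-coding, the share of protein-coding genes is the one to set beside theirs. As the 5 genes had been picked from the table, the count without them is the one to read, and 4 of the other 166 genes, or 2.41%, were listed. Of these 4 genes, 2 came from the list of 17 genes of the methionine and folate cycle. The lists were themselves drawn up with the table known, so no excess can be read from this share.

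Apart from phdh-1, whose list held no other annotated gene, each of the 5 genes was the only listed one of its group. Among 4 genes of ADP/ATP carriers only ant-1.1 was listed, among 15 of cytochrome oxidase assembly only coa-5, and among 11 of the AMP-activated kinase and its upstream kinase complex only aakg-3. swt-7 was the only listed gene of 7 SWEET sugar transporters, and the other transporter name of that list was not found in the annotation. For serine synthesis 1 of 3 names, phdh-1, was found in the annotation used. The 5 genes were picked from the table, which lists 0.766% of protein-coding genes. Groups of this size therefore cannot show that their other genes were missing from it.

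No listed gene came from 5 lists with 95 genes in all, those of cytochrome oxidase subunits (7 genes), the other respiratory chain complexes and ATP synthase (37), the citric acid cycle (18), glycolysis and gluconeogenesis (23) and the mitochondrial stress response (10). With 0.766% of protein-coding genes in the table, lists of this size cannot show an absence.

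The 4 further genes were joined to peaks of folds between 3.23 and 4.24. dif-1, a gene of the mitochondrial carrier family to which ant-1.1 also belongs (IV, 7553209 to 7553506), had 18 R24 tags (10.7 to 28.4), against a DMSO background of 3.49 tags (3.08 to 3.92), and a fold of 4.24. coq-3, a gene of coenzyme Q synthesis (IV, 14794368 to 14794691), had 21 R24 tags (12.999 to 32.1), against a DMSO background of 5.59 tags (2.97 to 9.55), and a fold of 3.34. Both encode proteins of the mitochondrion, like ant-1.1 and coa-5.

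The remaining genes belong to the methionine cycle, which takes carbon units that serine supplies. metr-1, the methionine synthase gene (II, 10927308 to 10927665), had 22 R24 tags (13.8 to 33.3), against a DMSO background of 6.004 tags (5.47 to 6.57), and a fold of 3.28. sams-1, a gene of S-adenosylmethionine synthetase (X, 11968183 to 11968500), had 33 R24 tags (22.7 to 46.3), against a DMSO background of 9.54 tags (7.50 to 11.96), and a fold of 3.23. Both deposited folds lay below the median of 3.896 for all peaks.

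**Figure D4:**
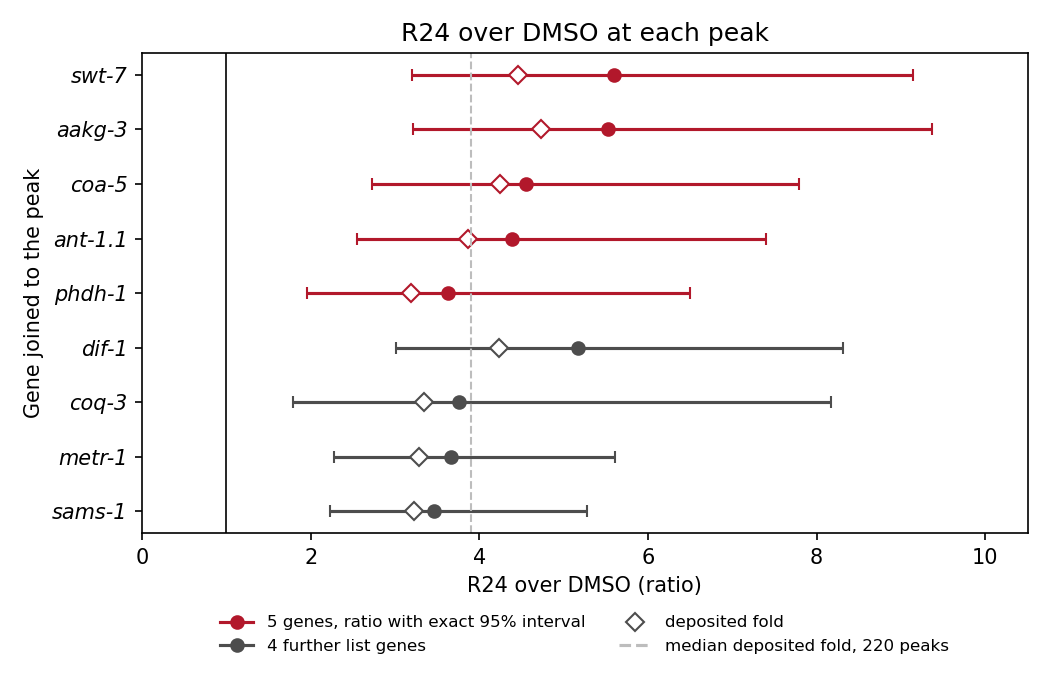
R24 over DMSO (x axis, ratio) at the peaks of the 5 genes in red and of the 4 further list genes in grey. Circles are plain ratios with exact 95% intervals, open diamonds the deposited folds, the solid line a ratio of 1 and the dashed line the median deposited fold of 3.896, to be read against the diamonds alone. All intervals overlap one another, from swt-7 at 5.59 to sams-1 at 3.46.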

How the data were processed

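Per the labels, the authors mapped reads to ce10 (BWA 0.7.15), filtered alignments (Picard, SAMtools) and compared R24 with DMSO, 1 library each, in MACS2 (2.1). Per the file headers, MACS 2.1.1.20160309 used a 296 bp fragment model, a q cutoff of 0.05, 1 tag per position and the human genome size of 2.7 Gb. The methods of the authors' paper instead name the no-model setting and a final cutoff on p, so this peak list need not be its final set. The deposited peak list gives the pileup (signal), the fold (a ratio), −log10 p and −log10 q by the authors. The deposited gene table gives a score that the authors headed fold enrichment, used here for the join alone (tolerance 6e-06), and a p and a q as −log10, of which the q served only as a filter.

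The DMSO background was recovered as (pileup + 1)/fold − 1 and converted to whole DMSO tags, which all 220 peaks gave within 0.000461 of a tag. The smallest window that gave a whole number was taken. Of the 189 genes 182 matched RefSeq (WBcel235) and 146 were joined to a peak, after genes out of chromosomal order were left out. Intervals at 95% are exact Poisson for tags and Clopper-Pearson for ratios, in Python 3.11.15 with scipy 1.17.1. Recovered backgrounds and the join by full value were checked on simulated data. The choice between windows that give the same background was not covered. The join by decimals, on which coa-5 rests, was not covered by that check. Named genes were the 5 members, the listed genes of the 13 lists, genes of adjacent peaks and the nearest genes by tags. Members and lists were chosen with earlier results of these data known. No sequences were used here.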

Additional observations from a re-analysis of the deposited data

How the results depend on the processing

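Of 24 alternatives 21 left counts within 1.5 times and folds within their counting intervals. Many of the 21 could not have come out otherwise, so this count says little about robustness. A fold without the pseudocount is the ratio on which its own interval is built. All 5 members exceed a −log10 q of 2, and all 9 list genes were joined to a peak. The worm genome size of 90 Mb raises the lowest background to 2.89 tags, which all 5 backgrounds exceed, so it changed none of the 5 folds. Among all 220 peaks 23 had a background under it, that of pad-1 among them. Without the pseudocount the 5 folds became 3.63 to 5.59, the median 4.56 and the count of at least 4 became 4 of 5, while the same change brought 69.1% of all peaks there. Without coa-5, which was joined by decimals alone, the median was 4.16. The number of genes with a neighbouring peak was 4 within 20 kb, beside 33.2% of all peaks, and 1 when peaks under 1 kb apart counted as 1, beside 15% of all peaks, an alternative chosen after seeing the data. With only the 149 of 189 table genes whose q in the table was under 0.05, 5 of the 9 list genes were left, among them 2 of the 5 members. No paired analysis was possible because each group held 1 library. The 17 to 47 R24 tags per summit limit the precision of each ratio.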

Other observations

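The peak on chromosome I that shares the −log10 q of 5.38 with the ant-1.1 peak was reached from different counts, with 18 R24 tags, against a DMSO background of 3.10 tags from 244 tags in the 10 kb window, and had a fold of 4.63. The ant-1.1 peak had 24 R24 tags, against a DMSO background of 5.47 tags, and a fold of 3.86. Equal −log10 q thus stood beside unequal folds. At coa-5 the whole part of the table value was lower than that of the peak's −log10 q by 8, with the same decimals. It was 1 of 22 joined genes with such a difference, and cdk-5 and pad-1, the neighbours of ant-1.1 and coa-5, were among them.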
